A study of Mus musculus with 13 samples.

Results

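Fibroblasts deleted for IMP1 and fibroblasts deleted for IMP2 were compared with each other at the level of total RNA. The comparison took the count table titled IMP1 KO and the one titled IMP2 KO, so that it rests on 2 of the 13 libraries of the series, 1 for each knockout (KO). The question it addresses is how the RNA of cells that lack one family member differs from that of cells that lack the other. Both libraries came from mouse embryonic fibroblasts (MEFs), connective tissue cells grown out of mouse embryos, with E12.5 entered in the strain field of the labels, kept in DMEM with 10% FBS. Total RNA of an IMP1 wild-type (WT) and an IMP2 WT library, also 1 each and labelled wild type without further detail, gave the level of each gene without either deletion. The other 9 libraries were immunoprecipitations (IPs), 3 each with IgG, anti-IMP1 and anti-IMP2. The labels do not say how the genes were deleted, whether a culture was a clone or a pool of embryos, at which passage RNA was taken, or which culture served as whose littermate.

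IMP1 (gene Igf2bp1) and IMP2 (gene Igf2bp2) belong to the insulin-like growth factor 2 mRNA-binding proteins, a family that binds mRNAs in the cytoplasm and acts on their stability, localisation and translation. The family was named for its binding to Igf2 messages. Embryonic fibroblasts are a mixture of mesenchymal cells from different parts of the body. Their Hox genes record the position they came from, and in culture they can take on features of contractile, cartilage or bone cells.

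Values are CPM, the reads of a gene relative to the total reads counted in its library, scaled between libraries by edgeR's TMM method. A ratio is given on the log2 scale with a prior count of 2, or as a fold of CPM with its exact 95% interval, which covers counting error only. With 1 library in each group there is no replicate check and no test of the genotype, so that every difference below is one between libraries. Gene counts were 11430002 in IMP1 KO, 16575386 in IMP2 KO, 14756745 in IMP1 WT and 17225308 in IMP2 WT. The limit that a count of 0 allows, 3 counts, was 0.254 CPM in IMP1 KO and 0.183 CPM in IMP2 KO on this scale. A gene was measured when it lay on an autosome and reached 10 CPM in either knockout library, which 9643 of 30887 autosomal genes did. Sex-linked genes were left out, since the comparison was set to autosomal genes. Both knockouts had few or no counts of Y-linked genes, unlike the wild types. Kdm5d, Uty, Ddx3y and Eif2s3y had 0, 0, 0 and 0 counts in IMP1 KO and 0, 0, 3 and 2 in IMP2 KO. The same genes had 152, 133, 752 and 339 in IMP1 WT and 284, 387, 1925 and 849 in IMP2 WT. The X-linked Xist, expressed from the inactive X chromosome of females, had 117 counts in IMP1 KO, 123 in IMP2 KO, 65 in IMP1 WT and 0 in IMP2 WT. In every value of a knockout against its wild type below, the deletion and a difference in sex between the cultures cannot be told apart.

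The knockout cultures differed far more than the wild-type cultures did. Of the 9643 measured genes, 1700 (17.6%) were at least 2-fold apart between the knockouts, 806 (8.36%) higher in IMP1 KO and 894 (9.27%) higher in IMP2 KO. Between the wild-type libraries 78 of the same genes (0.809%) were that far apart, 36 (0.373%) higher in IMP1 WT and 42 (0.436%) in IMP2 WT. At 16-fold or more there were 291 genes between the knockouts, 69 higher in IMP1 KO and 222 higher in IMP2 KO, and 0 between the wild types. The median absolute log2 ratio was 0.366 between knockouts and 0.152 between wild types, and the SD over genes was 1.345 against 0.277. The level filter can be passed through 1 knockout alone, which favours genes that differ. The genes were therefore also counted with a filter blind to the knockouts. Of 8752 genes with at least 10 CPM in both wild-type libraries, an alternative added after seeing the data, 1277 (14.6%) were at least 2-fold apart, 682 of them higher in IMP1 KO and 595 higher in IMP2 KO.

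**Figure D1:**
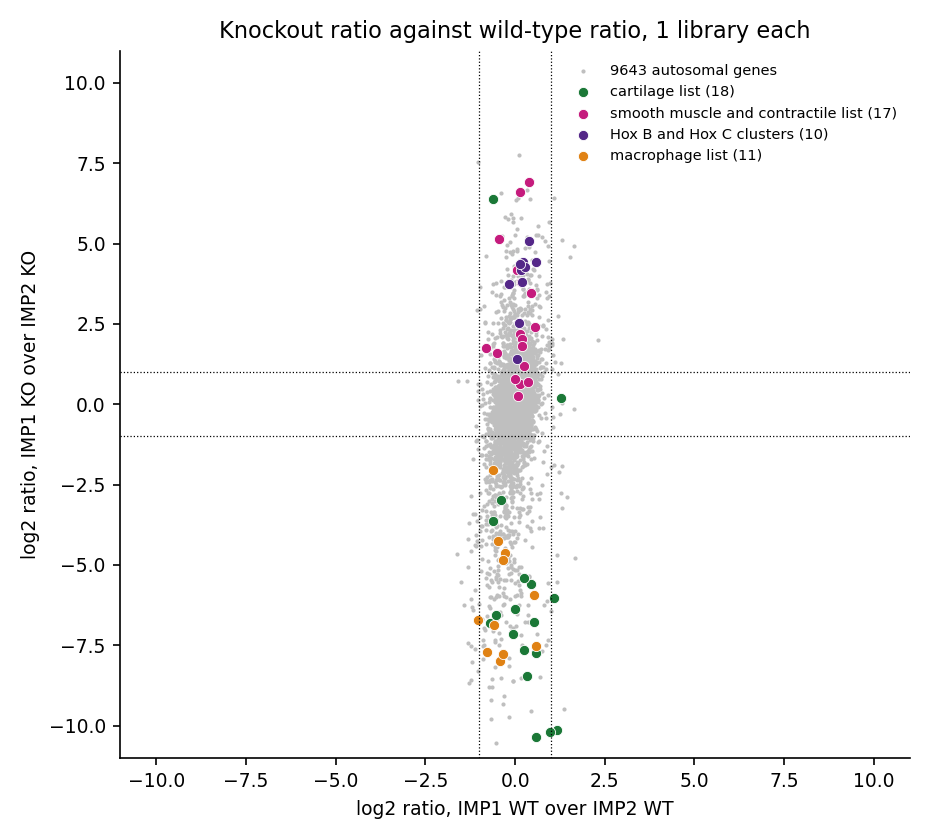
Log2 ratio of IMP1 KO to IMP2 KO (vertical) against that of IMP1 WT to IMP2 WT (horizontal) for 9643 autosomal genes, 1 library each, with dotted lines at 2-fold and 4 gene lists in colour. The cloud is tall and narrow, with 1700 genes beyond 2-fold between the knockouts and 78 between the wild types.

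Most of the gap was absent from the wild types. Of the 1700 genes, 1395 (82.1%) had wild-type libraries within 1.5-fold of each other. The 48 genes at least 2-fold apart in the same direction in both comparisons were 61.5% of the 78 wild-type genes and 2.82% of the 1700 knockout genes. After subtracting the wild-type log2 ratio, 1548 genes (16.1%) stayed at least 2-fold apart, 729 (7.56%) higher in IMP1 KO and 819 (8.49%) higher in IMP2 KO. Across genes the knockout ratio and the wild-type ratio had a Pearson's r of 0.291 and a Spearman's rho of 0.331 (9643 genes, which are not independent replicates).

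Both knockouts contributed to the gap. Against its own wild type, IMP1 KO had 1106 genes (11.5%) at least 2-fold apart, 514 higher (5.33%) and 592 lower (6.14%). IMP2 KO had 1352 (14.0%), 738 higher (7.65%) and 614 lower (6.37%). Of the 806 genes higher in IMP1 KO, 356 (44.2%) had left the wild-type level by 2-fold in the direction of the gap only in IMP2 KO, 172 (21.3%) only in IMP1 KO, and 62 (7.69%) in both and in opposite directions. Of the 894 genes higher in IMP2 KO, the same counts were 312 (34.9%), 203 (22.7%) and 183 (20.5%). The remaining 216 and 196 genes reached 2-fold between the knockouts without doing so in either knockout against its wild type in the direction of the gap. Across the 9643 genes the log2 ratios of the knockouts to their own wild types had a Pearson's r of 0.071 and a Spearman's rho of 0.256.

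The IMP genes themselves separated the libraries by genotype, which checks the labels. Igf2bp1 (ENSMUSG00000013415, chromosome 11) had 32.3 CPM in IMP1 WT, 24 in IMP2 WT, 3.21 in IMP1 KO and 16.2 in IMP2 KO, from 38 counts in IMP1 KO and 266 in IMP2 KO, and was 5.06-fold (3.59 to 7.31) lower in IMP1 KO than in IMP2 KO. Igf2bp2 (ENSMUSG00000033581, chromosome 16) had 168 CPM in IMP1 WT, 149 in IMP2 WT, 130.4 in IMP1 KO and 28.2 in IMP2 KO, and was 4.63-fold (4.17 to 5.15) higher in IMP1 KO. Igf2bp3 (ENSMUSG00000029814, chromosome 6), the family member that was not targeted, had 30.9 CPM in IMP1 WT, 29.5 in IMP2 WT, 38 in IMP1 KO and 13.7 in IMP2 KO. Each targeted gene was lowest in its own knockout, and Igf2bp3 was lowest in IMP2 KO, where all 3 genes were under their wild-type levels. Igf2bp3 was 2.77-fold (2.36 to 3.27) higher in IMP1 KO than in IMP2 KO, with the wild-type libraries 1.05-fold apart.

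Genes of smooth muscle and pericytes, the contractile cells of vessel and gut walls, were higher in IMP1 KO. Of 20 listed genes 17 were measured, 13 were at least 2-fold higher in IMP1 KO and 0 higher in IMP2 KO, with a median log2 ratio of 2.04 against 0.01 over all measured genes and 0.15 for the same genes between wild types. With the filter on the wild types, 14 of 18 were higher in IMP1 KO and 0 in IMP2 KO. Their median log2 ratio to wild type was 0.44 in IMP1 KO and -1.55 in IMP2 KO, and their summed level was 26157 CPM in IMP1 KO, 7035 in IMP2 KO, 25663 in IMP1 WT and 20191 in IMP2 WT. IMP2 KO was thus the library that stood apart from the other 3. In bulk RNA of this kind, fewer cells of a type and less RNA per cell cannot be told apart.

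Among the actins, Actg2 (ENSMUSG00000059430; GRCm38.p6, chromosome 6, 83512909 to 83536251), the smooth muscle gamma actin of the gut, had 448 CPM in IMP1 WT, 343 in IMP2 WT, 948 in IMP1 KO and 7.7 in IMP2 KO, a gap of 123-fold (103 to 148). Acta2 (chromosome 19, 34240336 to 34255585), the smooth muscle alpha actin that marks myofibroblasts, had 8384 CPM in IMP1 WT, 6207 in IMP2 WT, 8141 in IMP1 KO and 735 in IMP2 KO, and was 11.1-fold (10.9 to 11.3) higher in IMP1 KO. Both were near or above the wild-type level in IMP1 KO and far under it in IMP2 KO, although reads of near-identical actin coding sequences may be shared or lost in counting. Of the actin-binding proteins, calponin Cnn1 had 629.8 CPM in IMP1 WT, 560.3 in IMP2 WT, 603 in IMP1 KO and 43.5 in IMP2 KO (13.8-fold, 12.8 to 15). Tagln, which bundles actin filaments, had 5027 CPM in IMP1 WT, 3404 in IMP2 WT, 2984 in IMP1 KO and 561 in IMP2 KO (5.32-fold, 5.2 to 5.44). IMP2 KO held the lowest value of all 4 libraries for each of these genes. The smooth muscle myosin heavy chain Myh11 had 80.5 CPM in IMP1 WT, 110.4 in IMP2 WT, 145 in IMP1 KO and 3.97 in IMP2 KO, a gap of 36.5-fold (28.5 to 47.6), and Lmod1, which starts actin filaments, had 203 CPM in IMP1 WT, 184 in IMP2 WT, 289 in IMP1 KO and 62.7 in IMP2 KO. Smaller gaps were found for the tropomyosin Tpm1 (3136 and 1944 CPM in IMP1 KO and IMP2 KO), the caldesmon gene Cald1 (2793 and 1808), the myosin kinase Mylk (109 and 62.5) and smoothelin Smtn (124 and 104), none of which reached 2-fold. Myocd, the muscle coactivator of serum response factor, was below the filter with 8 counts in IMP1 KO and 0 in IMP2 KO.

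The pericyte genes were not all alike. Mcam, an adhesion molecule of pericytes, followed the actins, with 291 CPM in IMP1 WT, 284 in IMP2 WT, 290 in IMP1 KO and 15.8 in IMP2 KO (18.4-fold, 16.2 to 21). Rgs5, which dampens G protein signals in pericytes, had 33.4 CPM in IMP1 WT, 30.2 in IMP2 WT, 1513 in IMP1 KO and 15.5 in IMP2 KO and was 97.5-fold (86.2 to 111) higher in IMP1 KO. Here IMP1 KO stood apart, 45.3-fold above its wild type, while IMP2 KO was 1.95-fold below its own. Notch3, a receptor of mural cells, had 24.1 CPM in IMP1 WT, 42.4 in IMP2 WT, 124 in IMP1 KO and 36.8 in IMP2 KO (3.37-fold, 3.07 to 3.71), and its IMP2 KO level lay between the wild types.

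**Figure D2:**
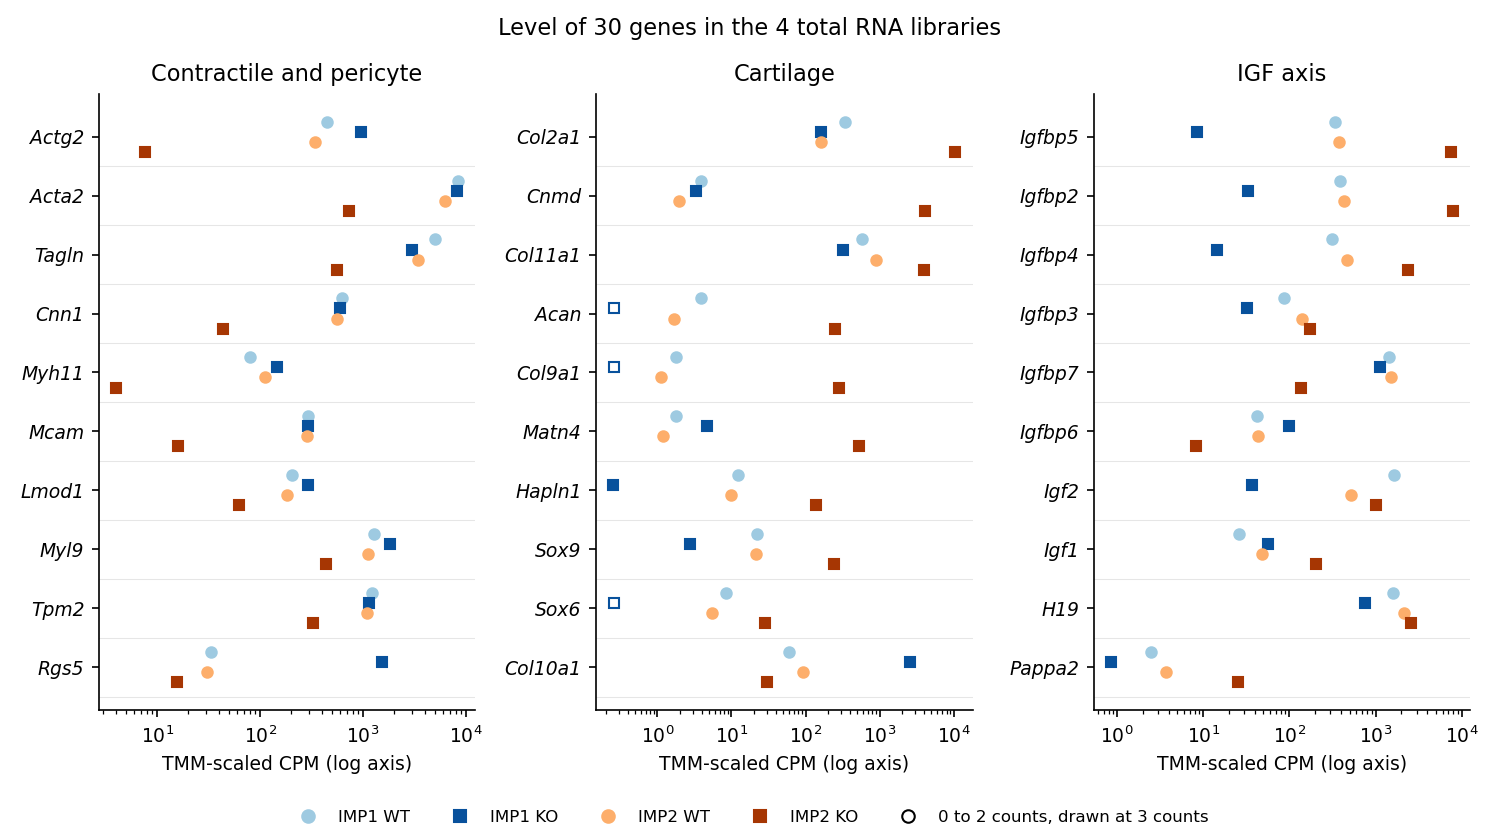
TMM-scaled CPM on a log axis of 30 genes from the contractile, cartilage and IGF lists in the 4 total RNA libraries, 1 point for each library, with open symbols for 0 to 2 counts drawn at the level of 3 counts. Contractile genes are low in IMP2 KO, cartilage genes except Col10a1 are high in IMP2 KO, and Igfbp5, Igfbp2 and Igfbp4 lie on opposite sides of the wild types in the knockouts.

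Serum response factor acts on contractile genes through the CArG box, a 10-base element, and the 250 bases before each RefSeq start (GRCm38.p6) were searched for it; the element is its own reverse complement, so that both strands were covered. It was found in 2 of the 16 contractile genes with a promoter in the table, in 0 of 16 cartilage genes, in 105 of 7487 measured genes (1.4%) and in 439 of 27025 genes in all (1.62%). The 2 windows are shown because both genes differed at least 2-fold between the knockouts, with the box in capitals. Cnn2, a calponin, lies at chr10:79988350-79988599 on the plus strand with the box starting 56 bases before the start site, and Myl9, the regulatory light chain of smooth muscle myosin, at chr2:156775214-156775463 on the plus strand with the box 161 bases before it.
Cnn2: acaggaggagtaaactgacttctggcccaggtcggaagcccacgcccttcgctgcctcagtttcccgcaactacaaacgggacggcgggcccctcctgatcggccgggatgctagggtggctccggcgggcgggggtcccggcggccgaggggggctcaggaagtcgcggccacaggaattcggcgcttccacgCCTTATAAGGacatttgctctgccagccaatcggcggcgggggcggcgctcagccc
Myl9: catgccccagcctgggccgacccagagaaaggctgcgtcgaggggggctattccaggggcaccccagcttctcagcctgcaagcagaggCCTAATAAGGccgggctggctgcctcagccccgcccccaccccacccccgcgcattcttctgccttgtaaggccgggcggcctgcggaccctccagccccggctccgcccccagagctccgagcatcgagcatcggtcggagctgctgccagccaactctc
Cnn2 had 1224 CPM in IMP1 WT, 1033 in IMP2 WT, 1905 in IMP1 KO and 836 in IMP2 KO (2.28-fold, 2.23 to 2.33) and Myl9 had 1265 CPM in IMP1 WT, 1113 in IMP2 WT, 1811 in IMP1 KO and 440.5 in IMP2 KO (4.11-fold, 4 to 4.22). A match describes these letters in this window and is no measured binding site.

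Genes of cartilage were higher in IMP2 KO. Of 22 listed genes 18 were measured, 16 were at least 2-fold higher in IMP2 KO and 1 higher in IMP1 KO, with a median log2 ratio of -6.67 between knockouts and 0.29 between wild types. Only 5 of the 22 reached 10 CPM in both wild types, of which 4 were higher in IMP2 KO and 1 in IMP1 KO, so that most members passed the filter through IMP2 KO alone. The summed level was 20812 CPM in IMP2 KO, 3106 in IMP1 KO, 1099 in IMP1 WT and 1276 in IMP2 WT. The median log2 ratio to wild type was 6.14 in IMP2 KO and -0.97 in IMP1 KO.

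Col2a1 (ENSMUSG00000022483, chromosome 15, 97975602 to 98004724), the main collagen of cartilage, had 341 CPM in IMP1 WT, 161 in IMP2 WT, 161 in IMP1 KO and 10566 in IMP2 KO, a gap of 65.8-fold (62.9 to 68.9). The partner collagen Col11a1 had 583 CPM in IMP1 WT, 890 in IMP2 WT, 323 in IMP1 KO and 4007 in IMP2 KO (12.4-fold, 12 to 12.8), and Col9a1 had 1.76 CPM in IMP1 WT, 1.13 in IMP2 WT, 0.0845 in IMP1 KO and 285 in IMP2 KO, from 1 count in IMP1 KO, a ratio of 3371 with an interval of 605 to 133169. Cnmd (chromosome 14, 79637682 to 79662194), which encodes chondromodulin, an inhibitor of vessel growth in cartilage, had 3.93 CPM in IMP1 WT, 1.96 in IMP2 WT, 3.3 in IMP1 KO and 4065 in IMP2 KO, and was 1233-fold (902 to 1734) higher in IMP2 KO. All 4 genes were highest in IMP2 KO by a wide margin, with IMP1 KO within or under the range of the wild types. The proteoglycan Acan, which holds water in cartilage, had 3.87 CPM in IMP1 WT, 1.66 in IMP2 WT, 0.0845 in IMP1 KO and 247 in IMP2 KO, with 1 count in IMP1 KO and 4043 in IMP2 KO. Its link protein Hapln1 had 12.1 CPM in IMP1 WT, 9.73 in IMP2 WT, 0.254 in IMP1 KO and 137 in IMP2 KO, with 3 counts in IMP1 KO (539-fold, 184 to 2616).

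The transcription factors that drive cartilage followed the matrix genes. Sox9, required for chondrocyte formation, had 21.8 CPM in IMP1 WT, 21.7 in IMP2 WT, 2.79 in IMP1 KO and 240.5 in IMP2 KO (86.2-fold, 61.3 to 125), and its wild-type libraries were equal within 0.01 on the log2 scale. Sox6, a cofactor of Sox9, had 8.34 CPM in IMP1 WT, 5.51 in IMP2 WT, 0 in IMP1 KO and 28.5 in IMP2 KO, with 0 counts in IMP1 KO, and was at least 112-fold higher in IMP2 KO. Sox5 had 8.14 CPM in IMP1 WT, 10.7 in IMP2 WT, 2.62 in IMP1 KO and 21.6 in IMP2 KO (8.23-fold, 5.69 to 12.3). All 3 were below wild type in IMP1 KO and above it in IMP2 KO. Nkx3-2 and Pax9, factors of early cartilage and of the sclerotome that gives the vertebrae, had 0.169 and 0.169 CPM in IMP1 KO, 36.3 and 42.8 in IMP2 KO, and 1.76 to 6.31 in the wild types.

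Col10a1 (chromosome 10, 34389981 to 34397085), the collagen of hypertrophic cartilage, ran the other way, with 60.3 CPM in IMP1 WT, 92.2 in IMP2 WT, 2587 in IMP1 KO and 30.6 in IMP2 KO and a gap of 84.5-fold (77.4 to 92.5) in favour of IMP1 KO. It was 42.9-fold above wild type in IMP1 KO and 3.01-fold below it in IMP2 KO. Ihh, the signal of prehypertrophic cartilage, was below the filter with 12 counts in IMP1 KO and 9 in IMP2 KO, and Matn3 differed by 1.16-fold between the knockouts (0.91 to 1.48). The libraries therefore did not split along the whole cartilage list. Of 15 listed bone genes 5 were measured, with 3 higher in IMP1 KO and 2 in IMP2 KO. Spp1, an acidic protein of bone and other matrices, had 11567 CPM in IMP1 WT, 16351 in IMP2 WT, 25.9 in IMP1 KO and 2673 in IMP2 KO, and was below wild type in both knockouts, 103-fold (92.1 to 116) lower in IMP1 KO than in IMP2 KO. Runx2, the factor that commits cells to bone, had 32.8 CPM in IMP1 WT, 32.7 in IMP2 WT, 32.7 in IMP1 KO and 81.5 in IMP2 KO (2.49-fold, 2.22 to 2.8), and the homeobox gene Alx4 had 5.83 CPM in IMP1 WT, 6.17 in IMP2 WT, 39.1 in IMP1 KO and 1.41 in IMP2 KO (27.9-fold, 18.3 to 44.4). The median of the bone list, 1.05, changed sign when the filter was set at 1 CPM, at 30 CPM or on the wild types (-3.692, -1.313 and -1.313).

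The insulin-like growth factor (IGF) axis, from which the IMP family has its name, held some of the widest gaps. IGF-binding proteins carry IGF1 and IGF2 outside the cell and limit or prolong their access to the receptor. Of 20 listed genes 16 were measured, 10 were at least 2-fold higher in IMP2 KO and 2 in IMP1 KO (median log2 ratio -1.78, and -0.32 between wild types). With the filter on the wild types the counts were 11 and 2 of 17. Of all measured genes 9.27% were higher in IMP2 KO and 8.36% in IMP1 KO.

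Igfbp5 (ENSMUSG00000026185, chromosome 1, 72858065 to 72874865) had 338 CPM in IMP1 WT, 379 in IMP2 WT, 8.54 in IMP1 KO and 7437 in IMP2 KO, a gap of 871-fold (717 to 1070). Igfbp2, its neighbour on the chromosome (72824480 to 72852474), had 383 CPM in IMP1 WT, 429.5 in IMP2 WT, 33 in IMP1 KO and 7893 in IMP2 KO (239-fold, 216 to 264). Igfbp4 had 312 CPM in IMP1 WT, 462 in IMP2 WT, 14.6 in IMP1 KO and 2399 in IMP2 KO (164-fold, 141 to 192). In these 3 genes the wild types were within 1.48-fold of each other, and the knockouts lay on opposite sides of them, 11.6-fold to 39.6-fold below in IMP1 KO and 5.2-fold to 19.6-fold above in IMP2 KO. Igfbp3 had 86.1 CPM in IMP1 WT, 142 in IMP2 WT, 32.6 in IMP1 KO and 176 in IMP2 KO (5.38-fold, 4.84 to 6). The other binding proteins had the opposite direction. Igfbp7 had 1439 CPM in IMP1 WT, 1531 in IMP2 WT, 1121 in IMP1 KO and 138 in IMP2 KO, 8.13-fold (7.77 to 8.5) higher in IMP1 KO, and Igfbp6 had 42.6 CPM in IMP1 WT, 43.6 in IMP2 WT, 98.2 in IMP1 KO and 8.25 in IMP2 KO (11.9-fold, 9.96 to 14.3). IMP2 KO was the library with the lowest level of both.

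Of the ligands, Igf2 had 1636 CPM in IMP1 WT, 513 in IMP2 WT, 37.2 in IMP1 KO and 1019 in IMP2 KO, and was 27.4-fold (24.9 to 30.2) lower in IMP1 KO than in IMP2 KO. Its wild-type libraries were already 1.67 apart on the log2 scale, in the direction opposite to that between the knockouts. Igf1 had 26 CPM in IMP1 WT, 47.7 in IMP2 WT, 56.5 in IMP1 KO and 205 in IMP2 KO (3.62-fold, 3.34 to 3.94), with IMP2 KO highest. The receptor messages differed little: Igf1r had 38.6 CPM in IMP1 KO and 52.2 in IMP2 KO, Insr 36.8 and 49.2, and Igf2r, which clears IGF2, 195 and 302, none of them 2-fold apart. Of the proteases that cut binding proteins, Pappa2 had 2.51 CPM in IMP1 WT, 3.74 in IMP2 WT, 0.845 in IMP1 KO and 25.2 in IMP2 KO (29.8-fold, 16 to 62.5) and Pappa had 126 CPM in IMP1 WT, 176 in IMP2 WT, 34.4 in IMP1 KO and 121 in IMP2 KO (3.51-fold, 3.15 to 3.91), both higher in IMP2 KO. Irs1, a docking protein under the receptors, had 14.5 CPM in IMP1 WT, 14.1 in IMP2 WT, 27.1 in IMP1 KO and 69 in IMP2 KO (2.54-fold, 2.25 to 2.89).

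Imprinted genes, which are expressed from 1 parental allele and many of which govern embryonic growth, leaned towards IMP2 KO. Of 42 listed genes 25 were measured, 9 were higher in IMP2 KO and 2 in IMP1 KO (median log2 ratio -0.63, and -0.02 between wild types), and under the wild-type filter the counts were 7 and 2 of 23. Of all measured genes 9.27% were higher in IMP2 KO and 8.36% in IMP1 KO, the latter about the share in this list. The zinc finger gene Zim1 had 2.92 CPM in IMP1 WT, 4.33 in IMP2 WT, 0.338 in IMP1 KO and 78.8 in IMP2 KO (233-fold, 90.8 to 857), and its neighbour Peg3 had 84.4 CPM in IMP1 WT, 118 in IMP2 WT, 29.8 in IMP1 KO and 984 in IMP2 KO (33-fold, 29.7 to 36.8). Mest, a gene of embryonic growth, had 101 CPM in IMP1 WT, 152 in IMP2 WT, 47.1 in IMP1 KO and 1728 in IMP2 KO (36.7-fold, 33.7 to 40). Cdkn1c, an inhibitor of cyclin-dependent kinases, had 25.1 CPM in IMP1 WT, 23.4 in IMP2 WT, 5.58 in IMP1 KO and 192 in IMP2 KO (34.3-fold, 26.9 to 44.5). In these 4 genes IMP1 KO was the lowest library and IMP2 KO the highest. H19, a non-coding RNA next to Igf2, had 1600 CPM in IMP1 WT, 2131 in IMP2 WT, 756 in IMP1 KO and 2554 in IMP2 KO (3.38-fold, 3.3 to 3.46). Dlk1, a membrane ligand of preadipocytes, had 149 CPM in IMP1 WT, 54.4 in IMP2 WT, 322 in IMP1 KO and 2384 in IMP2 KO (7.4-fold, 7.16 to 7.66), with both knockouts above their wild types. Grb10, an adaptor that restrains insulin and IGF receptors, was higher in IMP1 KO, with 947 CPM in IMP1 WT, 893 in IMP2 WT, 1872 in IMP1 KO and 831 in IMP2 KO (2.25-fold, 2.2 to 2.3), and so was Snrpn (23.8 and 9.59 CPM). H19, Igf2, Igf2r and Dcn belong to this list and to others as well.

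Hox genes are arranged in 4 clusters whose order follows the body axis, and the middle genes of the B and C clusters were lower in IMP2 KO. In the Hox B cluster all 5 measured genes of 10 were at least 2-fold higher in IMP1 KO (median log2 ratio 4.18), and in the Hox C cluster all 5 measured of 9 (median 4.26); the same genes had medians of 0.20 and 0.14 between wild types. Against wild type the medians were 0.51 and 0.02 in IMP1 KO and -3.28 and -3.50 in IMP2 KO. With the filter on the wild types, 4 of 5 Hox B genes and 5 of 6 Hox C genes were higher in IMP1 KO. Hoxb9 had 78.3 CPM in IMP1 WT, 52.5 in IMP2 WT, 103 in IMP1 KO and 4.7 in IMP2 KO (22-fold, 17.5 to 28), and Hoxc8 had 49.3 CPM in IMP1 WT, 38 in IMP2 WT, 156 in IMP1 KO and 4.46 in IMP2 KO (35.1-fold, 27.8 to 45). From Hoxb5 to Hoxb9 and from Hoxc4 to Hoxc9, each gene was lower in IMP2 KO than in any other library. At the other end of the B cluster, Hoxb2, Hoxb3 and Hoxb4 had 2.56, 5.74 and 9.77 CPM in IMP2 KO and 5.24, 15.5 and 5.41 in IMP1 KO, beside 3.93, 5.56 and 12.7 in IMP1 WT and 2.73, 5.40 and 12.7 in IMP2 WT. Hoxb3, 1 of the 5 genes counted as higher in IMP1 KO, was thus above wild type in IMP1 KO and near it in IMP2 KO.

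**Figure D3:**
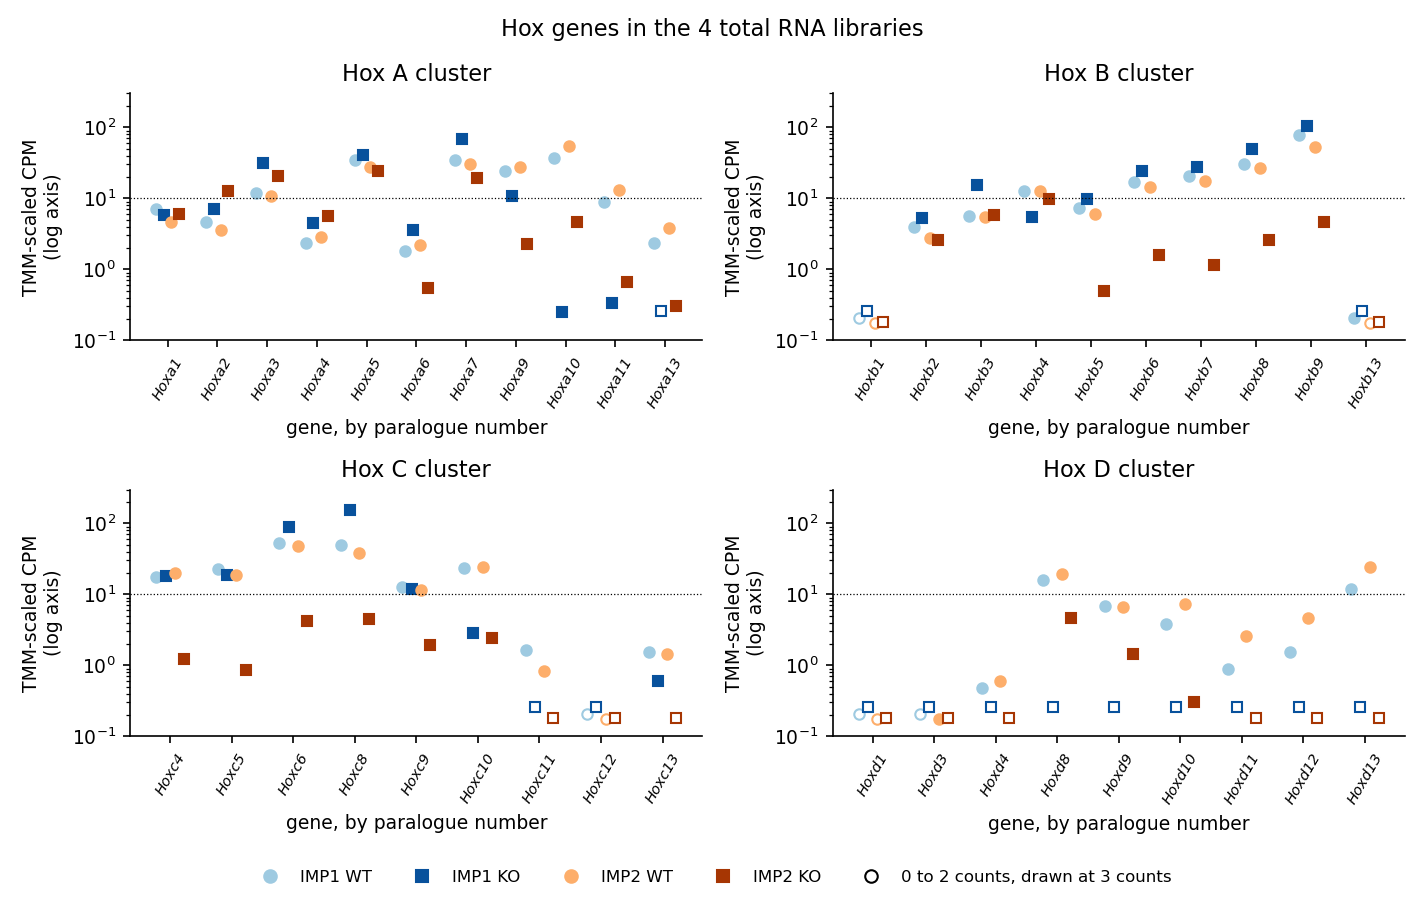
TMM-scaled CPM (log axis) of 39 Hox genes in the 4 total RNA libraries, ordered by paralogue number within each cluster, with a dotted line at 10 CPM and open symbols for 0 to 2 counts drawn at the level of 3 counts. Middle genes of the B and C clusters are low in IMP2 KO, the D cluster is at 0 to 2 counts in IMP1 KO, and paralogues 10 to 13 are low in both knockouts where they were expressed.

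The A and D clusters differed from these. In Hox A 5 of 11 genes were measured, with Hoxa7 (34.4 CPM in IMP1 WT, 30.8 in IMP2 WT, 67.5 in IMP1 KO and 19.4 in IMP2 KO) and Hoxa9 (24.2 CPM in IMP1 WT, 28 in IMP2 WT, 10.7 in IMP1 KO and 2.26 in IMP2 KO) higher in IMP1 KO and 3 within 2-fold. The Hox D cluster had no measured gene of 9, and its summed level was 41.8 CPM in IMP1 WT, 65.7 in IMP2 WT, 0.169 in IMP1 KO and 6.54 in IMP2 KO. In IMP1 KO 8 of the 9 Hox D genes had a count of 0. Hoxa10 had 36.5 CPM in IMP1 WT, 54.3 in IMP2 WT, 0.254 in IMP1 KO and 4.64 in IMP2 KO. Hoxc10 had 23.5 CPM in IMP1 WT, 24 in IMP2 WT, 2.87 in IMP1 KO and 2.44 in IMP2 KO. Hoxa10, Hoxc10 and the summed D cluster were thus below wild type in both knockouts, while the middle B and C genes were so in IMP2 KO.

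Other transcription factors of body position were split between the knockouts. Of 59 listed genes 33 were measured, 8 were higher in IMP1 KO and 12 in IMP2 KO (median log2 ratio -0.08), and under the wild-type filter 9 and 15 of 35. Both counts were larger shares than the 8.36% and 9.27% of all measured genes. Sim2 had 26.3 CPM in IMP1 WT, 10.3 in IMP2 WT, 0 in IMP1 KO and 95 in IMP2 KO, with 0 counts in IMP1 KO, at least 375-fold lower than in IMP2 KO, and its wild types were 2.56-fold apart. Tbx15, a factor of the trunk skin and skeleton, had 154 CPM in IMP1 WT, 219.8 in IMP2 WT, 5.07 in IMP1 KO and 332 in IMP2 KO (65.4-fold, 50.8 to 85.9), and Irx1 and Irx2 had 1 count each in IMP1 KO against 20.3 and 23.9 CPM in IMP2 KO. In the other direction, Prrx1, a factor of limb mesenchyme, had 489 CPM in IMP1 WT, 581 in IMP2 WT, 1090 in IMP1 KO and 164 in IMP2 KO (6.65-fold, 6.38 to 6.93), and En1, of the ventral limb and dermis, had 6.65 CPM in IMP1 WT, 8.01 in IMP2 WT, 31.8 in IMP1 KO and 1.04 in IMP2 KO (30.6-fold, 18.9 to 53.1). The factors that set forelimb and hindlimb were nearly absent from both knockouts: Tbx5, of the forelimb, had 16.6 CPM in IMP1 WT, 21.4 in IMP2 WT, 0 in IMP1 KO and 1.22 in IMP2 KO, Tbx4, of the hindlimb, had 17 CPM in IMP1 WT, 24.1 in IMP2 WT, 0 in IMP1 KO and 2.5 in IMP2 KO, and Pitx1, also of the hindlimb, had 39.1 CPM in IMP1 WT, 48.2 in IMP2 WT, 0.0845 in IMP1 KO and 4.52 in IMP2 KO. The part of regional origin in the other gaps was not tested.

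Of 15 fibroblast markers 14 were measured, 3 of them higher in IMP1 KO, 5 higher in IMP2 KO and 6 within 2-fold, so that the labelled cell type was seen in both knockouts but with unequal marker levels. The shares over all measured genes were 8.36% higher in IMP1 KO and 9.27% higher in IMP2 KO. Vim, Pdgfrb and Ddr2, which other mesenchymal cells also express, were within 2-fold between the knockouts, with 4774, 553 and 695 CPM in IMP1 KO and 5275, 459 and 414 in IMP2 KO. Thy1, a surface protein used to sort fibroblasts, had 557 CPM in IMP1 WT, 695 in IMP2 WT, 882 in IMP1 KO and 92.7 in IMP2 KO (9.52-fold, 9.02 to 10), and Twist2 had 26.5 CPM in IMP1 WT, 20.1 in IMP2 WT, 32.6 in IMP1 KO and 2.56 in IMP2 KO (12.7-fold, 9.24 to 17.9). Pdgfra, the receptor that marks mesenchymal progenitors, had 75.4 CPM in IMP1 WT, 83.4 in IMP2 WT, 76 in IMP1 KO and 309 in IMP2 KO (4.07-fold, 3.79 to 4.38), higher in IMP2 KO. Markers of epithelium, mesothelium, endothelium, neurons, skeletal muscle, red cells and germ cells had between 0 and 6 measured genes per list.

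Matrix genes had gaps in both directions, beside 8.36% of all measured genes higher in IMP1 KO and 9.27% higher in IMP2 KO. Of 17 measured collagens, 6 were at least 2-fold higher in IMP2 KO and 2 in IMP1 KO (median log2 ratio -0.80). Under the wild-type filter the counts were 6 and 3 of 17. The fibrillar collagen Col3a1 had 2552 CPM in IMP1 WT, 4503 in IMP2 WT, 782 in IMP1 KO and 4969 in IMP2 KO (6.36-fold, 6.22 to 6.49), and Col6a1, of the pericellular microfibrils, had 627 CPM in IMP1 WT, 814 in IMP2 WT, 770.5 in IMP1 KO and 2439 in IMP2 KO (3.17-fold, 3.09 to 3.24), both highest in IMP2 KO. Col1a1 and Col1a2 were 1.74-fold and 1.92-fold higher in IMP2 KO. Col12a1, which decorates fibrils, had 1814 CPM in IMP1 WT, 2970 in IMP2 WT, 7537 in IMP1 KO and 2227 in IMP2 KO, and was 3.38-fold (3.34 to 3.43) higher in IMP1 KO.

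Of 35 measured matrix glycoproteins and crosslinking enzymes, 11 were higher in IMP1 KO and 14 in IMP2 KO (also 11 and 14 of 35 under the wild-type filter). Among the 11 were Eln, Fbln5, Lox and Mfap5, which take part in elastic fibres. Eln, elastin itself, had 137 CPM in IMP1 WT, 78.9 in IMP2 WT, 187 in IMP1 KO and 34.3 in IMP2 KO (5.45-fold, 4.96 to 5.99). Fbln5, which assembles elastic fibres, had 959 CPM in IMP1 WT, 969 in IMP2 WT, 6469 in IMP1 KO and 758 in IMP2 KO (8.54-fold, 8.38 to 8.7), and the crosslinking enzyme Lox had 6508 CPM in IMP1 WT, 8326 in IMP2 WT, 8497 in IMP1 KO and 2010 in IMP2 KO (4.23-fold, 4.17 to 4.28). Mfap5, of the microfibrils, had 45.6 CPM in IMP1 WT, 45.6 in IMP2 WT, 364 in IMP1 KO and 52.3 in IMP2 KO (6.96-fold, 6.46 to 7.5). Fbln5 and Mfap5 were above wild type in IMP1 KO, whereas Lox and Eln were below it in IMP2 KO. Among the 14 were Ogn, Fmod and Lum, small leucine-rich proteoglycans. Ogn had 490.1 CPM in IMP1 WT, 743 in IMP2 WT, 842 in IMP1 KO and 7602 in IMP2 KO (9.03-fold, 8.84 to 9.21), Fmod had 179 CPM in IMP1 WT, 189.8 in IMP2 WT, 148 in IMP1 KO and 1001 in IMP2 KO (6.76-fold, 6.43 to 7.11) and Lum had 42.5 CPM in IMP1 WT, 81.3 in IMP2 WT, 6.17 in IMP1 KO and 230.2 in IMP2 KO (37.3-fold, 29.6 to 47.7). The basement membrane laminin Lama4 had 57.4 CPM in IMP1 WT, 76.2 in IMP2 WT, 6.09 in IMP1 KO and 271 in IMP2 KO (44.6-fold, 35.3 to 57.1), and Fn1, fibronectin, had 16839 CPM in IMP1 WT, 20809 in IMP2 WT, 6902 in IMP1 KO and 17339 in IMP2 KO (2.51-fold, 2.49 to 2.53).

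Macrophage markers were higher in IMP2 KO. All 11 measured macrophage markers of 17 were at least 2-fold higher in IMP2 KO (median log2 ratio -6.70, and -0.41 between wild types), but 1 of the 17 reached 10 CPM in both wild types, so that the count rests on genes that passed through IMP2 KO. The list summed to 465 CPM in IMP2 KO, 14.5 in IMP1 KO, 38.2 in IMP1 WT and 52.1 in IMP2 WT, and 10 of the 17 markers had 0 counts in IMP1 KO. Adgre1, the F4/80 antigen, had 1.76 CPM in IMP1 WT, 1.13 in IMP2 WT, 0 in IMP1 KO and 24.5 in IMP2 KO, C1qb had 2.51 CPM in IMP1 WT, 3.38 in IMP2 WT, 0 in IMP1 KO and 34.2 in IMP2 KO, and Csf1r, the receptor of the macrophage growth factor, had 3.32 CPM in IMP1 WT, 4.27 in IMP2 WT, 1.01 in IMP1 KO and 33.3 in IMP2 KO. Ptprc, the pan-leukocyte CD45, had 0 counts in IMP1 KO and 75 in IMP2 KO. Every macrophage marker was above wild type in IMP2 KO and below it in IMP1 KO, and their part in the gaps of other genes was not tested.

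Complement genes also leaned this way, with 6 of 7 measured members higher in IMP2 KO and 0 higher in IMP1 KO (4 of 6 and 0 under the wild-type filter). C4b had 4.54 CPM in IMP1 WT, 5.75 in IMP2 WT, 0.254 in IMP1 KO and 247 in IMP2 KO, from 3 counts in IMP1 KO and 4044 in IMP2 KO (974-fold, 333 to 4725), with the caution that its near-copy C4a can share reads. C3 had 3.8 CPM in IMP1 WT, 8.06 in IMP2 WT, 16 in IMP1 KO and 304 in IMP2 KO (19-fold, 16.5 to 22.1). Of 10 measured genes of antigen presentation on MHC class I, 7 were higher in IMP2 KO and 0 in IMP1 KO (6 of 8 and 0 under the wild-type filter). H2-K1, a presenting molecule, had 53.4 CPM in IMP1 WT, 71.3 in IMP2 WT, 8.12 in IMP1 KO and 127 in IMP2 KO (15.6-fold, 12.7 to 19.4), and the peptide transporter Tap1 had 17.4 CPM in IMP1 WT, 21.4 in IMP2 WT, 7.52 in IMP1 KO and 38.8 in IMP2 KO (5.16-fold, 4.12 to 6.51). B2m, the shared light chain, was 1.01-fold apart (0.993 to 1.04). Interferon-stimulated genes had a median log2 ratio of -0.58 between knockouts and -0.53 between wild types. Their median gap was thus about that of the wild types. Of 18 measured, 4 were higher in IMP2 KO and 0 in IMP1 KO, beside 9.27% and 8.36% of all measured genes. Under the wild-type filter the counts were 1 and 0 of 10.

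Signalling genes had gaps in both directions, beside 8.36% of all measured genes higher in IMP1 KO and 9.27% higher in IMP2 KO. The TGF-beta and BMP list had 39 measured genes, with 11 at least 2-fold higher in IMP1 KO and 4 in IMP2 KO. Under the wild-type filter the counts were 12 and 3 of 38. Grem1 (chromosome 2, 113748675 to 113758648), a secreted BMP antagonist, had 699 CPM in IMP1 WT, 757 in IMP2 WT, 1487 in IMP1 KO and 24.4 in IMP2 KO (61-fold, 55.3 to 67.6), and Bmp4 had 76.2 CPM in IMP1 WT, 90.1 in IMP2 WT, 827 in IMP1 KO and 135 in IMP2 KO (6.13-fold, 5.85 to 6.42). The latent TGF-beta binding proteins Ltbp1 and Ltbp2 were 6.92-fold and 7.3-fold higher in IMP1 KO. Gdf10, a BMP-like factor, had 3.39 CPM in IMP1 WT, 2.49 in IMP2 WT, 0 in IMP1 KO and 99.8 in IMP2 KO, at least 393-fold higher in IMP2 KO, and the receptor Tgfbr2 had 206 CPM in IMP1 WT, 277 in IMP2 WT, 101 in IMP1 KO and 716 in IMP2 KO (7.07-fold, 6.66 to 7.51).

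Of 33 measured Wnt genes, 11 were higher in each knockout. For all measured genes the shares were 8.36% in IMP1 KO and 9.27% in IMP2 KO. Under the wild-type filter 7 of 23 were higher in IMP1 KO and 6 in IMP2 KO. Sfrp2 (ENSMUSG00000027996, chromosome 3, 83765750 to 83774314), a secreted Wnt modulator, had a log2 ratio of -10.55, with 6.58 CPM in IMP1 WT, 9.55 in IMP2 WT, 0.507 in IMP1 KO and 959 in IMP2 KO and 6 counts in IMP1 KO. Dkk3 had 381 CPM in IMP1 WT, 651 in IMP2 WT, 4.4 in IMP1 KO and 438 in IMP2 KO (99.7-fold, 76 to 134), and IMP1 KO was the library that stood apart. Nkd2, an intracellular inhibitor, had 4.61 CPM in IMP1 WT, 4.8 in IMP2 WT, 38.1 in IMP1 KO and 0.55 in IMP2 KO (69.4-fold, 36.2 to 153), and Rspo2, which amplifies Wnt signals, had 127 CPM in IMP1 WT, 227 in IMP2 WT, 936 in IMP1 KO and 159 in IMP2 KO (5.89-fold, 5.64 to 6.15). Of 30 measured genes of FGF, PDGF and HGF signalling, 7 were higher in IMP1 KO and 12 in IMP2 KO. Under the wild-type filter the counts were 6 and 9 of 25. Fgfr2 had 70.2 CPM in IMP1 WT, 60.3 in IMP2 WT, 180.2 in IMP1 KO and 583 in IMP2 KO (3.23-fold, 3.08 to 3.39) and Fgfr3, a receptor of growing cartilage, had 3.05 CPM in IMP1 WT, 1.72 in IMP2 WT, 3.72 in IMP1 KO and 55.6 in IMP2 KO (14.9-fold, 11 to 20.7). Kit, a receptor of stem cells, had 0.136 CPM in IMP1 WT, 0.0593 in IMP2 WT, 16.3 in IMP1 KO and 0 in IMP2 KO, at least 89-fold higher in IMP1 KO. The Hedgehog co-receptor Gas1 had 159 CPM in IMP1 WT, 274 in IMP2 WT, 125 in IMP1 KO and 1400 in IMP2 KO (11.2-fold, 10.6 to 11.8).

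Cell cycle genes were higher in IMP1 KO by smaller folds. Of 50 listed genes 43 were measured, 18 were at least 2-fold higher in IMP1 KO and 0 in IMP2 KO, with a median log2 ratio of 0.92. The same genes had a median of 0.36 between wild types, with IMP1 WT above IMP2 WT, and 42 of the 43 had a positive knockout ratio. Rrm2, which makes deoxyribonucleotides, had 80.6 CPM in IMP1 WT, 49 in IMP2 WT, 80.1 in IMP1 KO and 24.4 in IMP2 KO (3.29-fold, 2.92 to 3.71). The mitotic kinase Aurka had 30.9 CPM in IMP1 WT, 20.1 in IMP2 WT, 25.3 in IMP1 KO and 7.88 in IMP2 KO (3.21-fold, 2.6 to 3.97), and Ccne1, a cyclin of S phase entry, had 61.9 CPM in IMP1 WT, 46 in IMP2 WT, 44.5 in IMP1 KO and 13.6 in IMP2 KO (3.28-fold, 2.8 to 3.85). For all 3 IMP2 KO was the lowest library. The replication helicase genes Mcm2 to Mcm7 were all within 2-fold.

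Several lists of basic cell functions were close between the knockouts. Over all measured genes, 8.36% were at least 2-fold higher in IMP1 KO and 9.27% in IMP2 KO. Oxidative phosphorylation had 1 of 59 measured genes higher in IMP1 KO and 0 in IMP2 KO (median log2 ratio 0.31), mitochondrial ribosomal proteins 0 of 72 in either direction (0.12), endoplasmic reticulum chaperones 0 of 31 (-0.21), and translation factors 1 of 40 higher in IMP1 KO (0.18). Of 55 measured cytosolic ribosomal proteins 2 were higher in IMP1 KO and 3 in IMP2 KO (median -0.10). Other such lists were less close. Of 27 measured redox and NRF2 targets, 2 were higher in IMP1 KO and 9 in IMP2 KO (2 and 9 of 26 under the wild-type filter). Cholesterol and fatty acid synthesis had 5 and 2 of 30, and glycolysis and hypoxia 4 and 1 of 27. Of 23 measured p53 targets and senescence genes, 1 was higher in IMP1 KO and 2 in IMP2 KO, the latter near the share over all measured genes. Under the wild-type filter the counts were 1 and 3 of 23.

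**Figure D4:**
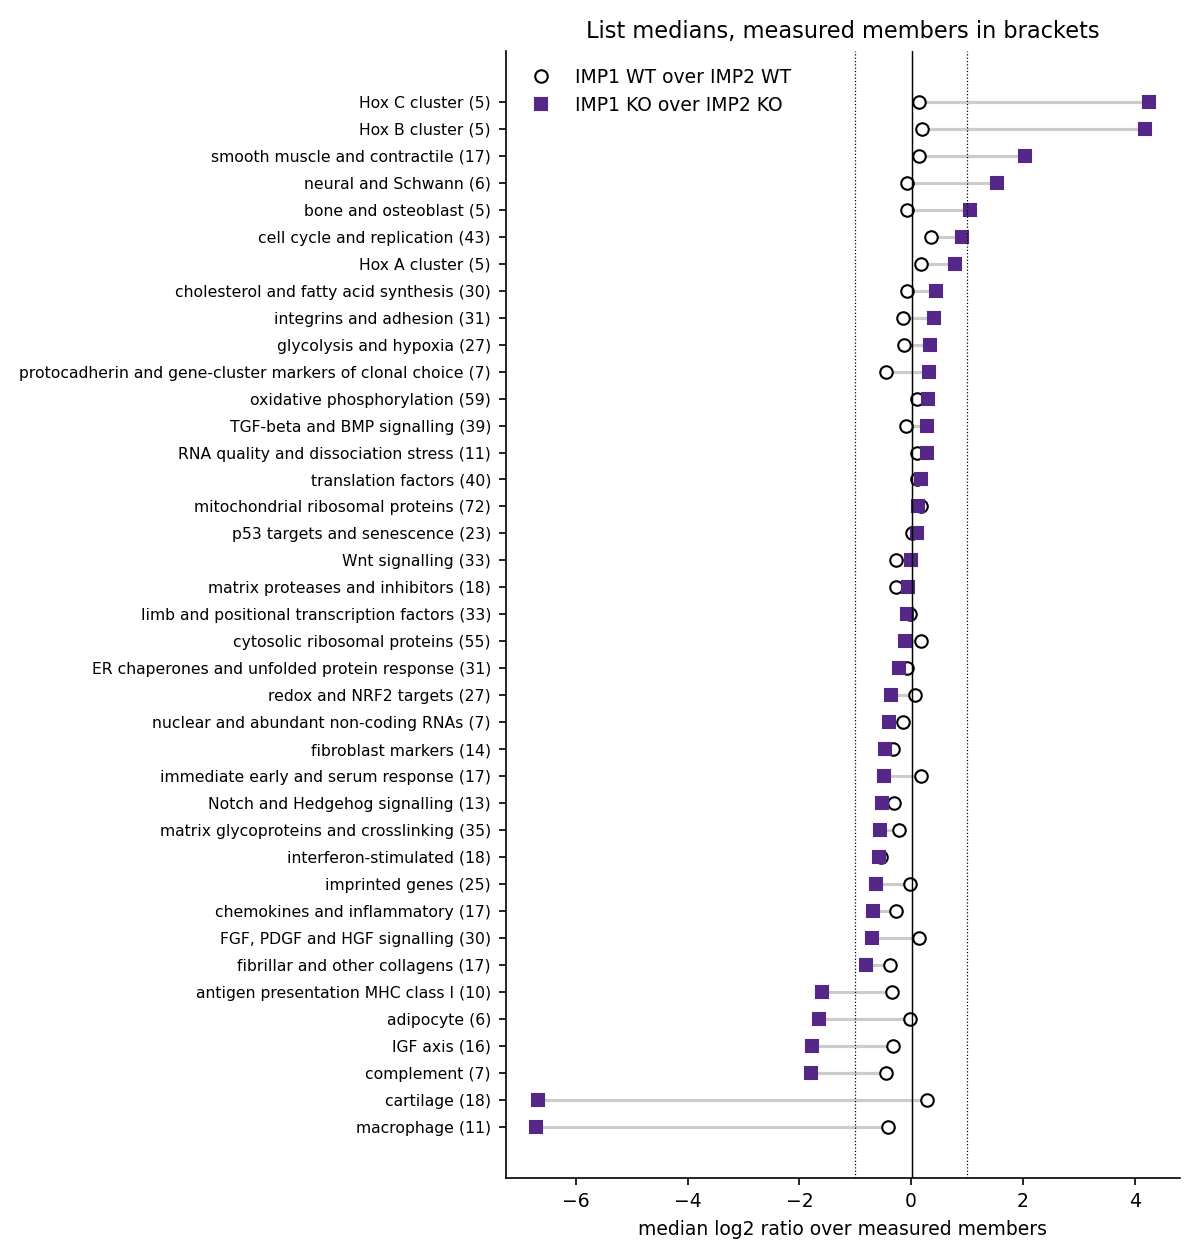
Median log2 ratio over the measured members of each gene list with at least 5 measured members, for IMP1 KO over IMP2 KO (squares) and IMP1 WT over IMP2 WT (circles), with dotted lines at 2-fold. The squares run from -6.70 for macrophage markers and -6.67 for cartilage to 4.18 and 4.26 for the Hox B and Hox C clusters, while the circles lie between -0.53 and 0.36.

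Among the other genes with the widest gaps, several were high in IMP2 KO alone. Penk, which encodes the precursor of enkephalins, had 72.7 CPM in IMP1 WT, 115 in IMP2 WT, 16.1 in IMP1 KO and 14224 in IMP2 KO (886-fold, 768 to 1026). The protease inhibitor Slpi had 119 CPM in IMP2 KO, with 1 count in IMP1 KO and under 1 CPM in both wild types. Dio3, an imprinted-region deiodinase that inactivates thyroid hormone, had 10.6 CPM in IMP1 WT, 11 in IMP2 WT, 0.93 in IMP1 KO and 417 in IMP2 KO (448-fold, 250 to 898), and Ism1 had 11.9 CPM in IMP1 WT, 19.2 in IMP2 WT, 0.592 in IMP1 KO and 431 in IMP2 KO (728-fold, 353 to 1812). Cytl1, a cytokine-like protein of cartilage, Col26a1, Olfml1, Stk32b, Srgn, Tmem178, Susd5 and Col9a3 had 37.3 to 172 CPM in IMP2 KO and at most 3 counts in IMP1 KO.

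On the other side, Saa3, an acute-phase apolipoprotein, had 1.15 CPM in IMP1 WT, 2.49 in IMP2 WT, 58.6 in IMP1 KO and 0.183 in IMP2 KO, and Adamts18 had 0.407 CPM in IMP1 WT, 0.296 in IMP2 WT, 44.3 in IMP1 KO and 0.305 in IMP2 KO, with 3 and 5 counts in IMP2 KO (320-fold, 109 to 1554, and 145-fold, 61.8 to 449). Sost, the Wnt inhibitor of osteocytes, had 0.0678 CPM in IMP1 WT, 0.0593 in IMP2 WT, 16.4 in IMP1 KO and 0.244 in IMP2 KO, and Kit was named above. These genes were low in both wild types and high in IMP1 KO. Alkal1, Siglecg, Hspb7, Sox11, Cpa6 and Egln3 instead had 12.6 to 64.4 CPM in the wild types, 12.2 to 93.9 in IMP1 KO and 0.183 to 1.28 in IMP2 KO. Egln3, an oxygen sensor, had 12.6 CPM in IMP1 WT, 12.6 in IMP2 WT, 12.2 in IMP1 KO and 0.183 in IMP2 KO, a gap that came from IMP2 KO alone. Ctla2a, a cathepsin inhibitor, had 20.8 CPM in IMP1 WT, 25.4 in IMP2 WT, 126 in IMP1 KO and 2.08 in IMP2 KO (60.9-fold, 43.4 to 88.3). Hoxb5os, antisense to the Hox B cluster, had 6.37 CPM in IMP1 WT, 6.7 in IMP2 WT, 16.1 in IMP1 KO and 0.183 in IMP2 KO, and since the use of strand in counting is not given, its reads cannot be told apart from those of overlapping Hox B genes.

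Among genes with at least 100 CPM in both knockouts, the widest gaps were those of Smoc2 in favour of IMP1 KO (log2 ratio 3.64) and of Col2a1 in favour of IMP2 KO (-6.04). Smoc2, a matricellular protein, had 99.6 CPM in IMP1 WT, 122 in IMP2 WT, 1317 in IMP1 KO and 106 in IMP2 KO, a ratio with an interval of 11.9 to 13.1, and was 13.2-fold above wild type in IMP1 KO. Serpine2, a protease inhibitor, had 931 CPM in IMP1 WT, 989 in IMP2 WT, 103 in IMP1 KO and 851 in IMP2 KO (8.28-fold, 7.81 to 8.79), 9.06-fold below wild type in IMP1 KO and 1.16-fold below it in IMP2 KO.

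The median ratios of some chromosomes also lay apart from that of all genes. Position along a chromosome was not examined. The median log2 ratio of chromosome 10 (509 measured genes) lay 0.302 above that of all genes, and those of chromosome 4 (630 genes) and chromosome 3 (492 genes) lay below it (-0.342 and -0.214). Chromosome 1 (591 genes) lay 0.139 above, and the other 15 autosomes between -0.069 and 0.059. On chromosome 4, 74.6% of genes had a ratio below the median of all genes, and on chromosome 10 26.9%. The shifts of chromosomes 10, 4 and 3 appeared against wild type in IMP1 KO (0.305, -0.327 and -0.241) and were small in IMP2 KO (-0.009, 0.024 and -0.015) and between wild types (-0.005, -0.005 and -0.015). In fold terms the medians were 1.23 for chromosome 10, 1.27 for chromosome 4 and 1.16 for chromosome 3. Chromosome number was not measured here.

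**Figure D5:**
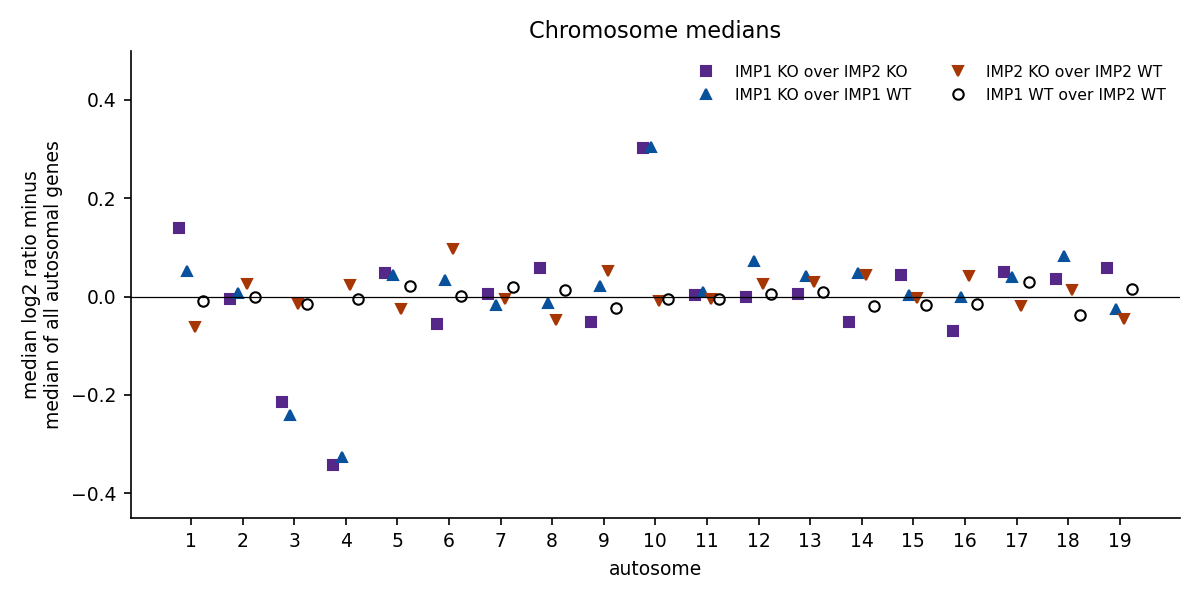
Median log2 ratio of each autosome minus the median of all measured autosomal genes, for IMP1 KO over IMP2 KO, each knockout over its own wild type, and IMP1 WT over IMP2 WT. Chromosome 10 lies above and chromosomes 3 and 4 below in the comparisons that hold IMP1 KO against another library.

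The neighbourhoods of the deleted genes were examined as well. Over all measured genes, 8.36% were at least 2-fold higher in IMP1 KO and 9.27% in IMP2 KO. Within 5 Mb of Igf2bp1, 96 measured genes had a median log2 ratio of -0.002, with 10 higher in IMP1 KO and 6 in IMP2 KO. The Hox B cluster lies there, with Hoxb9 265 kb and Hoxb3 301 kb from Igf2bp1, and Igfbp4 lies 3034 kb from it. Hoxb9 was near wild type in the knockout of Igf2bp1 and low in that of Igf2bp2. Hoxb3 was instead 2.78-fold above wild type in the knockout of Igf2bp1 and 1.06-fold above it in that of Igf2bp2. Within 5 Mb of Igf2bp2, 68 measured genes had a median of -0.089, with 2 higher in IMP1 KO and 10 in IMP2 KO. They include Trp63, 24.2 CPM in IMP2 KO with 0 counts in IMP1 KO, and Il1rap, 83.3 CPM in IMP2 KO and 3.97 in IMP1 KO.

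Messages bound by IMP1 or by IMP2 were set beside the knockout ratio, since the IP libraries share no sample with it. The labels give no genotype for the IP cultures. By edgeR's quasi-likelihood test on the 9 IP libraries, 10053 of 14076 genes (71.4%) differed between IMP1 IP and IMP2 IP at an adjusted p under 0.05, 4800 (34.1%) higher in IMP1 IP and 5253 (37.3%) in IMP2 IP. A message was taken as IMP1-preferring or IMP2-preferring when it passed that threshold at least 1.5-fold above the other IP and also passed above IgG IP in the same test. Against IgG IP, 63.6% of genes passed for IMP1, 31.7% higher and 31.9% lower, and 77.6% for IMP2, 40.3% higher and 37.3% lower. The rule gave 1455 IMP1-preferring and 2476 IMP2-preferring messages. Of the 1186 measured IMP1-preferring messages, 82 were higher in IMP1 KO and 95 in IMP2 KO, and of the 2131 measured IMP2-preferring messages 156 and 117. Over all measured genes 8.36% were higher in IMP1 KO and 9.27% in IMP2 KO, so that neither set had a larger share than the background in either direction. Their median log2 ratios between knockouts were -0.043 and 0.094, beside 0.011 for all measured genes, and between wild types -0.094 and 0.076. Both medians were small and had the sign of the wild-type ratio.

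For each preference, the 5 messages with the highest and the 5 with the lowest knockout ratio were picked out, so that both directions appear by choice. Of the IMP1-preferring messages, Ptx3, a pattern recognition protein, was 0.76 higher in IMP1 IP than in IMP2 IP on the log2 scale (edgeR adjusted p = 2.75e-12), and had 79.1 CPM in IMP1 WT, 121 in IMP2 WT, 15.3 in IMP1 KO and 2024 in IMP2 KO in total RNA. Crybg3 was 1.57 higher in IMP1 IP (edgeR adjusted p = 2.21e-17), with 17.8 CPM in IMP1 WT, 15.2 in IMP2 WT, 99.7 in IMP1 KO and 8.12 in IMP2 KO. In the knockout of IMP1, Ptx3 was below wild type and Crybg3 above it. The others named by rule were Tll1, Slc8a1, Unc5b and Rap1gap2, 8.13-fold to 16.6-fold higher in IMP1 KO, and C4b, Mme, Robo2 and Adamts3, higher in IMP2 KO.

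Of the IMP2-preferring messages, Igfbp4 was lower in IMP1 IP than in IMP2 IP (log2 fold change -1.3, edgeR adjusted p = 5.95e-14), and was 5.2-fold above wild type in the knockout of IMP2. Il1rn, the interleukin-1 receptor antagonist, had a log2 fold change of -1.28 (edgeR adjusted p = 7.02e-06) and 195 CPM in IMP1 WT, 361 in IMP2 WT, 2.2 in IMP1 KO and 561 in IMP2 KO. Map3k7cl had a log2 fold change of -1.82 (edgeR adjusted p = 3.17e-05), and 29.4 CPM in IMP1 WT, 17.5 in IMP2 WT, 104 in IMP1 KO and 2.69 in IMP2 KO, with IMP2 KO lowest. Egln3, Rab3b and Hoxb7 were also higher in IMP1 KO, and Fam180a, Pax1 and Slc1a3 higher in IMP2 KO.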

How the data were processed

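Total RNA from 4 fibroblast cultures and 9 IP libraries were used. The authors deposited raw read counts per gene, 1 table for each library; the submitters' processing notes name STAR, HTSeq and mm10, and their versions, the annotation and the use of strand are not given in the sources used here. The last 5 lines of each table are tallies that name no gene, and they stayed out of library sizes: in the total RNA libraries, reads in no gene were 4.43% to 5.10% of all reads in the table, ambiguous reads 1.73% to 1.81% and reads not mapped uniquely 38.4% to 40.9%. Gene counts were 11430002 to 17225308 in total RNA and 11840189 to 21756430 in the IPs. Of 43629 genes, 42462 had a symbol and 33284 were placed on a chromosome of GRCm38.p6 through RefSeq symbols or synonyms, 30887 of them on 19 autosomes.

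Counts were scaled by TMM (edgeR 4.0.16, R 4.3.3) over the 4 total RNA libraries. Log2 ratios used a prior count of 2, over autosomal genes that reached 10 CPM in either knockout library. Folds are ratios of scaled CPM with exact binomial 95% intervals (Python 3.11.15, SciPy 1.17.1), which leave out biological variation; against 0 counts a bound was computed at 3 counts. IP counts were tested with edgeR's quasi-likelihood test and Benjamini-Hochberg adjustment over 14076 genes at 0.05, on the counts as deposited; nothing says that the 3 IP replicates came from separate cultures, so that their p-values measure the spread between these libraries. The ratio and IP steps were tested on simulated data. Alternatives were DESeq2 1.42.0 size factors and Wald test, other scalings, prior counts, filters and folds, a replicate block, and leaving out each IP library.

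Genes were named by rule: the 15 highest and 15 lowest knockout ratios; the 10 highest and 10 lowest with wild types under 1.25-fold apart; the 5 highest and 5 lowest with at least 100 CPM in both knockouts; the IMP family; the members of 48 gene lists with the largest ratios; and the 5 largest ratios in each direction among messages that prefer each IMP, of which 1 is not reported here. Further list members were named for their role, with their values known. The members and lists were chosen with earlier results of these data known.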

Additional observations from a re-analysis of the deposited data

Results flagged for a closer look

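Each knockout was set against its own wild type, and results were picked out where both knockouts lay at least 2-fold from their wild types, on opposite sides. That held for 30 of the 52 named genes, 10 higher in IMP1 KO and 20 higher in IMP2 KO, and for the macrophage list. Nearly all named genes were picked for extreme knockout ratios, which favours such a pattern. Only 1 of the 17 macrophage markers reached 10 CPM in both wild types. The measured ones mostly passed the filter through IMP2 KO, which favours the pattern as well. Of all genes at least 2-fold apart, it held for 62 of the 806 higher in IMP1 KO (7.69%). Of the 894 higher in IMP2 KO it held for 183 (20.5%). Acan and Col9a1 had 1 count in IMP1 KO, and Gdf10 and Sim2 had 0. With 1 library a group the difference was not tested. The values are differences of log2 ratios, IMP1 KO over IMP1 WT minus IMP2 KO over IMP2 WT.

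In favour of IMP2 KO, the cartilage genes had -11.30 for Acan, -10.94 for Col9a1, -8.78 for Hapln1, -7.90 for Col9a3 and -7.12 for Col2a1. The IGF-binding proteins had -9.58 for Igfbp5 and -7.73 for Igfbp2. Secreted signalling proteins had -10.02 for Sfrp2, -9.97 for Gdf10, -9.12 for Penk and -8.53 for Ism1. The transcription factor Sim2 had -10.82, complement C4b -8.99 and the deiodinase Dio3 -8.55. Slpi had -8.79, Srgn -8.70, Stk32b -8.56, Olfml1 -8.17, Tmem178 -7.95 and Susd5 -7.66. The median of the macrophage markers was -5.87.

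In favour of IMP1 KO, Saa3 had 8.56, Col10a1 7.01 and Actg2 6.54. Ctla2a had 6.13, the BMP antagonist Grem1 6.04, Cpa6 5.96, the Wnt inhibitor Nkd2 5.86, Hoxb5os 5.75, Sox11 5.63 and Ltbp2 2.79.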

How the results depend on the processing

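With 1 library for each knockout, the spread between cultures of a genotype is unknown and is not among the alternatives tried. The number of genes at least 2-fold apart between knockouts (1700, with 806 higher in IMP1 KO and 894 in IMP2 KO) followed the level filter: 3137 (1235 and 1902) at 1 CPM, 1094 at 30 CPM with 545 higher in IMP2 KO, and 4730 (1782 and 2948) with no filter on low counts. It was 3117 (1538 and 1579) at 1.5-fold and 976 (405 and 571) at 3-fold. With 10 CPM in both wild types, chosen after seeing the data, 595 genes were higher in IMP2 KO. The wild-type count (78) was 349 at 1 CPM, 33 at 30 CPM and 44 with a prior count of 10, and the count beyond the wild-type ratio (1548) was 2955 at 1 CPM and 979 at 30 CPM. The bone median changed sign, to -3.692 at 1 CPM and to -1.313 at 30 CPM and with the wild-type filter. The adipocyte median (-1.66) became 0.557 with the wild-type filter, which left 1 member. The interferon-stimulated median was -0.849 at 1 CPM. Scaling by total counts moved the medians of oxidative phosphorylation and mitochondrial ribosomal proteins to 0.373 and 0.191. Of 260 values of named genes under other scalings and prior counts, 222 moved by less than their counting interval, 38 by more, 28 of these with a prior count of 10, and 0 changed sign. That prior count also drew in the medians of the macrophage (-5.234), cartilage (-5.872) and Hox C (3.673) lists, and with a prior count of 0.5 Gdf10 (-11.54), Sim2 (-11.47), Col9a1 (-11.24) and Acan (-11.03) had lower ratios than Sfrp2 (-10.79).

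Messages preferring IMP1 and IMP2 numbered 599 and 936 at 2-fold above the other IP (median knockout ratios -0.077 and 0.124) and 2758 and 4245 with no fold minimum (IMP1-preferring median -0.007). Leaving out 1 IP library at a time gave 9580 to 10103 genes past the threshold between the IPs, 1385 to 1478 IMP1-preferring messages with medians of -0.048 to -0.037, and 2373 to 2553 IMP2-preferring messages with medians of 0.092 to 0.094. With the replicate number as a block, 10067 genes passed, with 1462 and 2478 preferring messages and medians of -0.043 and 0.094. Same-numbered IP libraries had deviations correlated at -0.058 to 0.073, and those with different numbers at -0.052 to 0.051. These values cannot tell how the replicates were made. DESeq2's Wald test gave 9224 genes, 1501 and 2060 messages and medians of -0.029 and 0.095.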

Other observations

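Genes of inflammation were split between the knockouts. Of 17 measured chemokine and inflammatory genes, 4 were at least 2-fold higher in IMP1 KO and 7 in IMP2 KO. Under the wild-type filter the counts were 4 and 4 of 15. Over all measured genes 8.36% were higher in IMP1 KO and 9.27% in IMP2 KO. The neutrophil chemokine Cxcl5 had 27.9 CPM in IMP1 WT, 57.4 in IMP2 WT, 0.423 in IMP1 KO and 175 in IMP2 KO (415-fold, 178 to 1279), and Il1rl1, the receptor of interleukin-33, had 272 CPM in IMP1 WT, 370.4 in IMP2 WT, 1.44 in IMP1 KO and 97.1 in IMP2 KO (67.6-fold, 42.1 to 116). In both, IMP1 KO was the lowest library. The prostaglandin enzymes ran the other way. Ptgs2, the inducible cyclooxygenase, had 759.9 CPM in IMP1 WT, 474 in IMP2 WT, 71.6 in IMP1 KO and 6.72 in IMP2 KO (10.7-fold, 8.73 to 13.1), below wild type in both knockouts, and Ptgs1 had 55.8 CPM in IMP1 WT, 55.6 in IMP2 WT, 50.9 in IMP1 KO and 3.48 in IMP2 KO (14.6-fold, 11.1 to 19.5), low in IMP2 KO. Cxcl12 had 744 CPM in IMP1 WT, 791 in IMP2 WT, 10263 in IMP1 KO and 6299 in IMP2 KO, so that it was above wild type in both knockouts and 1.63-fold apart between them.

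Cell surface genes also had gaps in both directions. Of 31 measured integrins and adhesion genes, 10 were higher in IMP1 KO and 9 in IMP2 KO. Under the wild-type filter the counts were 10 and 5 of 27. Over all measured genes the shares were 8.36% and 9.27%. Itga11, a collagen-binding integrin of fibroblasts, had 686 CPM in IMP1 WT, 917 in IMP2 WT, 1157 in IMP1 KO and 248 in IMP2 KO (4.67-fold, 4.51 to 4.84), and Itga10, its relative in cartilage, had 2.65 CPM in IMP1 WT, 3.14 in IMP2 WT, 1.18 in IMP1 KO and 18.6 in IMP2 KO (15.7-fold, 9.21 to 29). Alcam, an adhesion molecule, had 112 CPM in IMP1 WT, 136 in IMP2 WT, 13.4 in IMP1 KO and 125 in IMP2 KO (9.37-fold, 7.96 to 11.1), with IMP1 KO alone apart from the wild types. The adipocyte regulator Pparg was above wild type in both knockouts, with 8.61 CPM in IMP1 WT, 4.63 in IMP2 WT, 23.8 in IMP1 KO and 58.1 in IMP2 KO (2.45-fold, 2.14 to 2.81), and the fatty acid binding protein Fabp4 had 5.83 CPM in IMP1 WT, 5.34 in IMP2 WT, 14.2 in IMP1 KO and 59.2 in IMP2 KO (4.17-fold, 3.53 to 4.94). The small heat shock protein Hspb1 had 54.2 CPM in IMP1 WT, 45.5 in IMP2 WT, 89.9 in IMP1 KO and 8.37 in IMP2 KO (10.7-fold, 8.98 to 12.9).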
